A study of Mus musculus with 12 samples.

Results

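The replication-dependent histone cluster genes were taken as the genes of the expression table whose symbol begins with Hist1h, Hist2h, Hist3h or Hist4h, which gave 71 of 34745 genes. They comprise 6 linker histone H1 genes, 20 H2A genes, 20 H2B genes, 12 H3 genes and 13 H4 genes. In the coordinates of the deposited table (GRCm38), 56 lie in the Hist1 cluster on chromosome 13, 11 in Hist2 on chromosome 3, 3 in Hist3 on chromosome 11, and the lone Hist4 gene, Hist4h4, on chromosome 6. RNA was sequenced from MLE-12, an immortalized mouse line of alveolar type II (AT II) cells, in 12 libraries of 4 groups, 3 per group, after 24 h of treatment. The LPS group received 100 ng/mL lipopolysaccharide in 21% oxygen, and the LPS + M2-Exo group received the same with 10 µg/mL exosomes of M2 macrophages. The Hyp group was kept in 85% oxygen with no LPS named, and the Hyp + M2-Exo group also received 10 µg/mL M2-Exo. No library came from untreated cells, so oxygen and LPS differ together between the Hyp and LPS groups and cannot be told apart. The labels do not say that the 3 libraries of a group came from separate cultures, so the p-values measure the spread between these libraries, which may be technical.

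H2A, H2B, H3 and H4 form the protein core of the nucleosome, and H1 binds the linker DNA between nucleosomes. Cells make most of their histones from these cluster genes during S phase, as DNA is copied. Variants such as H2A.Z and H3.3 are also made outside S phase, from genes elsewhere. The S-phase histone mRNAs end in a short stem-loop, bound by the protein SLBP, in place of a poly(A) tail, although some of the genes can also give polyadenylated transcripts from a signal farther downstream. The labels give poly(A) selection with oligo(dT) for these libraries, which mostly leaves RNAs without a tail out, so a count here is of the RNA that passed that selection.

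The stem-loop was found in a GENCODE M21 transcript of 44 of the 69 members that have one there, against 1.35% of 141767 transcripts in all. The search fixed the outer letters of the stem and left the middle of each arm open to C or T on the 5′ side and to A or G on the 3′ side. In all 4 H1, 11 H2A, 8 H2B and 9 H3 genes with a match the stem read GGCTCT on its 5′ arm and AGAGCC on its 3′ arm, while of 12 H4 genes, 10 read GGCCCT and AGGGCC and 2 read GGTCCT and AGGACC. One member of each class is shown, with the stem and loop in capitals, to show the element that takes the place of the tail. All lie in 3′ UTRs and are given on the transcript's strand in GRCm38.
Hist1h1c, chr13:23739507-23739532 (+): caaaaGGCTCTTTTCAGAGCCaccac
Hist3h2a, chr11:58955167-58955192 (+): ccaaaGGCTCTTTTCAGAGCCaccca
Hist1h2bg, chr13:23571838-23571863 (+): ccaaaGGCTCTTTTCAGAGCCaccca
Hist1h3g, chr13:23535884-23535909 (+): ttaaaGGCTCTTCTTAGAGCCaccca
Hist1h4i, chr13:22040961-22040986 (-): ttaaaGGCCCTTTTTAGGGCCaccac

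A polyadenylation signal, AATAAA or ATTAAA, stood 6 to 40 bases before an annotated transcript end in 16 members, against 32.6% of all GENCODE M21 transcripts. The signals of the members with the most counts are shown with the hexamer in capitals, because they mark where a tailed form could end. In Hist1h1c, 840 bases separate the stem-loop from the end of the annotated transcript, and in Hist3h2a 1643 bases do. Hist1h2bq and Hist1h2br, which are near-identical copies, have the same letters around the signal.
Hist1h1c, chr13:23740333-23740356 (+): tatgcttctAATAAAaagcgttta
Hist3h2a, chr11:58956788-58956811 (+): tatatgcccAATAAAataagagta
Hist1h2be, chr13:23618980-23619003 (-): caagaaataAATAAAtgaaaatta
Hist1h2bq, chr13:21807289-21807312 (-): agaatattaAATAAAtttgtttct
Hist1h2br, chr13:21836630-21836653 (+): agaatattaAATAAAtttgtttct
Hist2h2be, chr3:96223708-96223731 (+): attattattAATAAAgttaccgat
Hist1h4i, chr13:22040642-22040665 (-): tctgtttacATTAAAagtattcta

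In RefSeq promoters (250 bases before to 50 after the start, GRCm38.p6), 62 members had a window, and both rows named Hist2h2bb have the same one, which left 61 windows. The octamer ATTTGCAT, searched on both strands, stood in 7 of 18 H2A and 6 of 15 H2B promoters and in 0 of 6 H1, 10 H3 and 12 H4 promoters, against 1.74% of 32851 promoters. CCAAT stood in all 6 H1, 18 H2A, 15 H2B and 10 H3 promoters but in 3 of 12 H4 promoters, against 37.4% of all. The letters AAACACA, from the H1 box, were in 5 of 6 H1 promoters and 7.18% of all, and TATAAA was in 35 of the 61 and 13.6% of all. H2A and H2B genes often lie head to head and share a promoter, so Hist1h2ae and Hist1h2bg hold the same octamer on opposite strands, shown in capitals.
Hist1h2ae, chr13:23571331-23571358 (-): tagaggttctATGCAAATaagggactca
Hist1h2bg, chr13:23571331-23571358 (+): tgagtcccttATTTGCATagaacctcta

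The members were rare in these libraries. Total counts ran from 16021833 to 24074616 per library, and all members together took between 0.00211% and 0.00788% of them. Of the LPS group, 426, 446 and 463 reads fell on the 71 genes per library, and of LPS + M2-Exo, 389, 475 and 391. Under hyperoxia the counts were 1850, 1547 and 1749 without M2-Exo and 1563, 1347 and 1428 with it. Both hyperoxia groups thus lay apart from both LPS groups. Between 45 and 60 members had at least 1 count in a library of the LPS groups, and between 60 and 67 in a library of the hyperoxia groups. No member was at 0 in all libraries, but 15 had a mean of at least 10 counts. Per length (FPKM, mean of the 12 libraries), the highest members were Hist1h2bc at 10.3, Hist1h1c at 8.37 and Hist1h2af at 6.70, followed by Hist1h4i at 2.33 and Hist1h4k at 1.93. Hist1h2af and Hist1h2bc stood at 4.75 ± 0.982 and 4.83 ± 1.06 FPKM in LPS, within their spread, and at 9.42 ± 1.89 and 17.5 ± 0.676 FPKM in Hyp (SD, n = 3). The testis histones Hist1h1t, Hist1h2aa and Hist1h2ba had 0 or 1 count in every library.

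Reads were shared out unevenly. Hist1h1c, which encodes the linker histone H1.2, took between 17.1% and 32.8% of the member counts of a library, and the 5 highest members took between 45.7% and 64.6%. In this protein family the coding sequences are nearly the same, and 52 members had a stretch of at least 75 bases at 98% identity or more in another gene, so how the counting program divided such reads, which the sources used here do not give, is part of their values. A pair of adjacent H2A copies is one case, and how far the division of reads set its counts was not tested. Hist2h2aa2 had 16, 17 and 19 counts in Hyp while its near-identical neighbour Hist2h2aa1 had 0, 9 and 13, and Hist2h2aa1 had 0 in the other 9 libraries. Of these 52, 10 also overlap a gene of the table by position, among them Hist3h2a with Trim17 and both rows named Hist2h2bb, of which the outer one spans the inner one.

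Hyperoxia was first set against LPS without M2-Exo. Summed over the 71 genes, the level in CPM (counts per 1000000 reads, scaled by TMM) was 71.5 ± 4.45 in Hyp and 24.1 ± 0.788 in LPS (SD, n = 3), a 2.96-fold ratio (log2 1.57), and the groups did not overlap. Every class was higher in each Hyp library than in each LPS library, and H1 had the widest ratio. H1 genes summed to 23.0 ± 2.00 CPM in Hyp and 5.76 ± 0.205 in LPS (log2 ratio 2.00). H2B genes gave 26.0 ± 0.615 against 8.76 ± 0.697 (1.57), and H2A genes 11.7 ± 0.966 against 5.26 ± 1.01 (1.16). The nucleosome's other pair of partners, H3 and H4, were the scarcest, with 4.25 ± 1.02 against 1.48 ± 0.381 CPM for H3 (1.52) and 6.40 ± 1.74 against 2.85 ± 0.581 for H4 (1.17). These sums were not tested, since they add up chosen genes. In bulk RNA, more cells in S phase and more histone RNA per cell cannot be told apart. The sums are of RNA that passed the poly(A) selection, and total histone RNA was not measured.

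**Figure D1:**
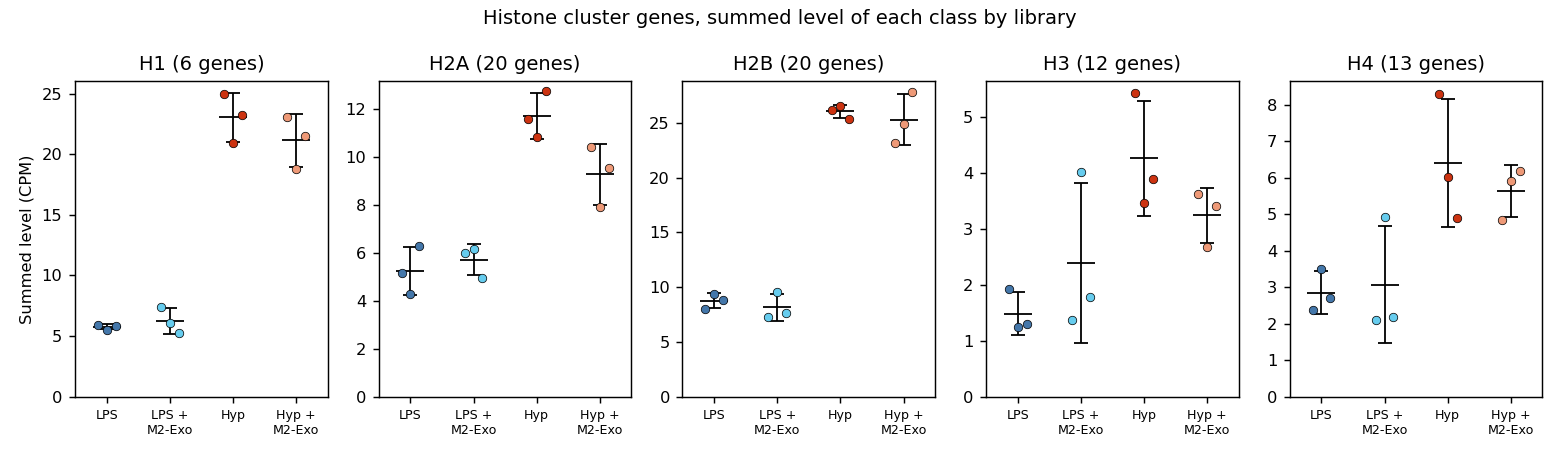
Summed level (CPM, linear axes from 0) of the H1, H2A, H2B, H3 and H4 cluster genes in each library (points), with the group mean and SD (bars, n = 3). Hyp lies above LPS in every class, and LPS + M2-Exo replicate 2 and Hyp replicate 1 are the highest of their groups for H3 and H4.

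Of the 71 members, 20 passed the filter on low counts in this comparison, and 17 were called higher in Hyp and 0 lower at an adjusted p under 0.05 (edgeR quasi-likelihood test, Benjamini-Hochberg over 13805 genes). Of all genes tested, 38.0% were called higher and 37.8% lower, 75.8% in either direction, so a call by itself was common here. The 17 are not all members, and 13 of the 20 passed the filter through the Hyp libraries alone. For these, not all LPS libraries reached the level of the filter, so the filter favoured a higher value in Hyp. These 13 were Hist1h1e, Hist1h1b, Hist2h2aa2, Hist1h2bq, Hist1h2bn, Hist1h2bg, Hist1h2br, Hist1h2bh, the Hist2h2bb outer row, Hist1h3d, Hist2h3c2, Hist1h4k and Hist1h4m. Their adjusted p-values are given below as values only and are no support for a rise. With no filter all 71 entered, and 26 were called higher and 0 lower, against 26.7% and 26.2% of 20645 genes. Restricted to at least 10 counts in all 6 libraries, 5 of 7 members were called, all higher. DESeq2 called 15 of the 20. Leaving out 1 library at a time gave between 14 and 20 calls, the lowest without Hyp replicate 1. The shares of all genes called with at least 10 counts, by DESeq2 and with a library left out are not given. These counts of members are therefore no result about the members.

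Among the H1 genes, Hist1h1c had 102, 97 and 98 counts in LPS and 536, 431 and 535 in Hyp. The groups were far apart, with a log2 fold change of 1.96 (SE 0.0905, edgeR adjusted p = 4.83e-07), and this gene has no near-identical stretch in another gene. Hist1h1e, encoding H1.4, had 4, 5 and 2 counts against 19, 15 and 17 (log2 fold change 1.80, edgeR adjusted p = 0.00203). Hist1h1b, encoding H1.5, went from 1, 0 and 1 counts to 16, 11 and 13 (3.74, edgeR adjusted p = 0.000508), a fold that rests on 2 reads in the LPS group. Hist1h1d and Hist1h1a did not pass the filter, and Hist1h1d had 0, 1 and 2 counts in LPS and 19, 11 and 9 in Hyp.

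The H2B genes held the most calls, 8 of 9 tested, but 6 of the 9 passed the filter through Hyp alone. Of all genes tested, 38.0% were called higher. With no filter, 9 of 20 H2B genes were called higher, against 26.7% of all genes. Hist1h2bc (chr13:23684199-23692488), the highest member per length, had 50, 73 and 80 counts in LPS and 294, 296 and 304 in Hyp, with a log2 fold change of 1.76 (SE 0.148, edgeR adjusted p = 1.32e-05). Hist1h2be had 15, 17 and 14 counts against 65, 68 and 69 (1.75, SE 0.175, edgeR adjusted p = 3.7e-05). Hist1h2bq rose from 9, 6 and 6 to 58, 44 and 60 (2.55, SE 0.251, edgeR adjusted p = 3.36e-05), the largest change of a member with a mean of at least 50 counts in Hyp. It passed through Hyp alone, so the filter set its direction. All these groups were apart. Hist1h2bn had 0 counts in every LPS library and 28, 34 and 31 in Hyp, at least 7.87-fold higher when the LPS group is set at 3 counts in a library. Its fitted change is no bound, and it has a near-identical stretch in 5 other H2B genes. Hist1h2bg, with 6, 5 and 7 counts against 13, 15 and 22, was called at 1.08 (edgeR adjusted p = 0.0183), but the call was lost without LPS replicate 2 (0.067), without Hyp replicate 3 (0.0645) and by DESeq2 (0.131).

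Some H2B genes are given here that were chosen after their values were seen. Hist2h2be had 40, 51 and 30 counts in LPS and 42, 42 and 48 in Hyp, so its groups overlapped, and its log2 fold change was -0.25 (SE 0.214, edgeR adjusted p = 0.311). It has no near-identical stretch in another gene, and it dominates the H2B genes of that kind, which together had a log2 ratio of -0.076 where all H2B genes had 1.57. The Hist2h2bb outer row, annotated as a lincRNA in GENCODE M21, rose from 0, 3 and 1 counts to 30, 27 and 27 (3.91, edgeR adjusted p = 0.000182). Hist1h2br rose from 2, 2 and 3 to 22, 28 and 21 (2.91, edgeR adjusted p = 0.000161), and Hist1h2bh from 2, 3 and 5 to 18, 13 and 15 (1.79, edgeR adjusted p = 0.00303).

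All 3 H2A genes tested were called higher, where 38.0% of all genes were called higher and 37.8% lower. One of them, Hist2h2aa2, passed the filter through Hyp alone. With no filter, 6 of 20 H2A genes were called higher, against 26.7% of all genes. Hist3h2a (chr11:58954685-58956830) had 35, 23 and 31 counts in LPS and 119, 101 and 114 in Hyp (log2 fold change 1.53, SE 0.172, edgeR adjusted p = 7.49e-05). Hist1h2af had 31, 32 and 45 counts against 91, 65 and 107, which stayed apart by a smaller change of 0.90 (SE 0.219, edgeR adjusted p = 0.00592). Hist2h2aa2 rose from 6, 3 and 4 to 16, 17 and 19 (1.60, edgeR adjusted p = 0.00258). The remaining 17 H2A genes did not pass the filter. Hist1h2ao, the next of the class per length and chosen after its values were seen, had 7, 9 and 4 counts in LPS and 5, 8 and 9 in Hyp.

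**Figure D2:**
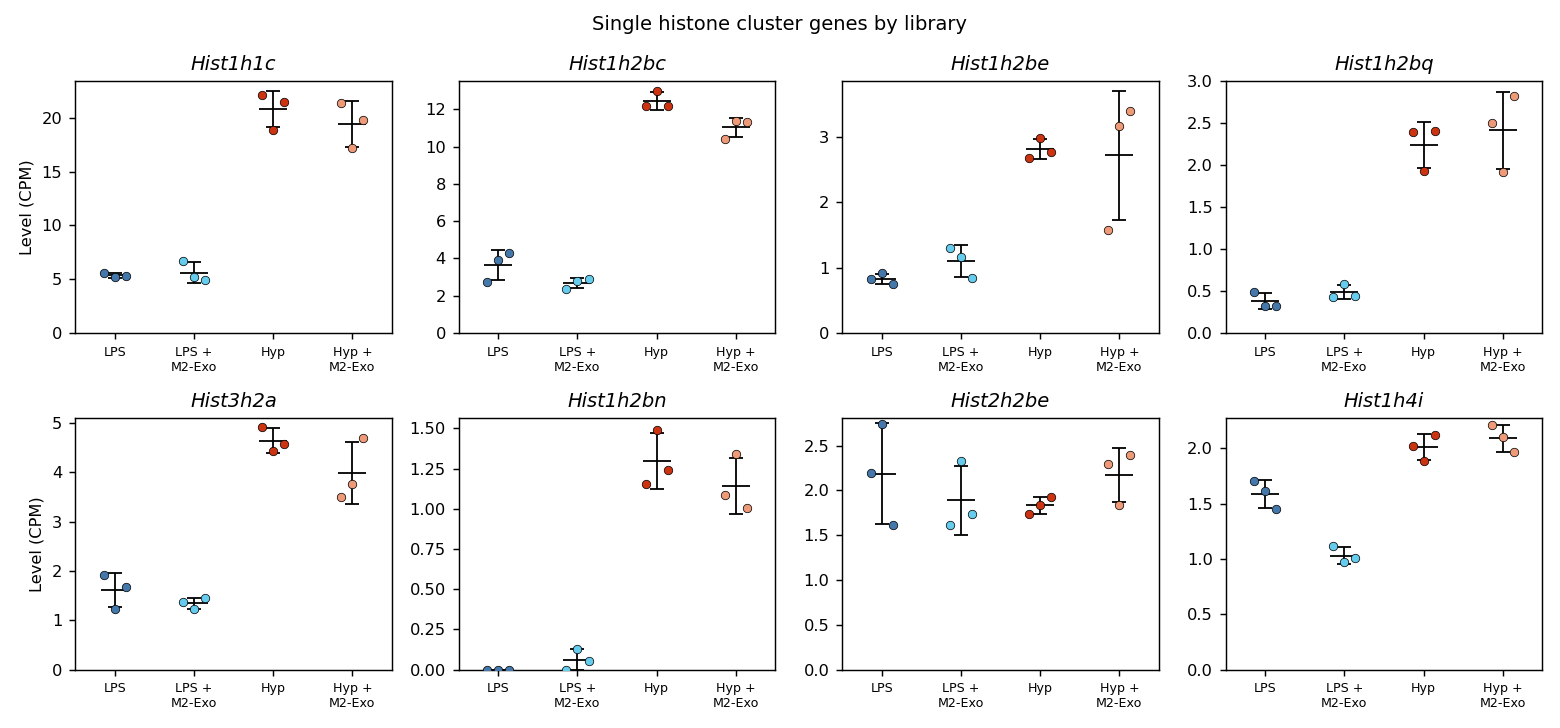
Level (CPM, linear axes from 0) of 8 single members in each library (points) with the group mean and SD (bars, n = 3). Hist1h1c, Hist1h2bc, Hist1h2be, Hist1h2bq, Hist3h2a and Hist1h2bn are higher in both hyperoxia groups, Hist2h2be overlaps across groups, and Hist1h4i is lowest in LPS + M2-Exo.

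H3 and H4 genes gave few reads each. Hist1h3d rose from 1, 3 and 0 counts to 22, 14 and 25 (3.45, edgeR adjusted p = 0.000955), and Hist2h3c2, not called and chosen after its values were seen, had 14, 6 and 12 counts against 25, 20 and 24 (0.72, edgeR adjusted p = 0.066). The first members of H3 per length, Hist1h3g and Hist1h3i, did not pass the filter. Hist1h3g had 5, 4 and 4 counts against 11, 19 and 10, and Hist1h3i had 6, 1 and 1 against 18, 11 and 8. Of the H4 genes, Hist1h4i, the highest, had 31, 30 and 27 counts against 49, 43 and 53. Its log2 fold change was 0.34 (SE 0.164, edgeR adjusted p = 0.0958), and scaling by library size alone gave 0.43 (edgeR adjusted p = 0.0429). Hist1h4k (5, 8 and 7 against 22, 17 and 13) was called at 0.99 (edgeR adjusted p = 0.0293), and Hist1h4m (0, 8 and 4 against 19, 23 and 14) at 1.82 (edgeR adjusted p = 0.0294). Leaving out LPS replicate 3, Hyp replicate 1 or Hyp replicate 2 ended either call (0.0624 to 0.0982), LPS replicate 1 ended that of Hist1h4k as well (0.096), and DESeq2 gave 0.154 for Hist1h4k.

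Of the classes, H3 and H4 alone had the highest sum of their group in both libraries with the most Rmrp and Rpph1 reads. Rmrp and Rpph1, the RNA parts of RNase MRP and RNase P, have no tail, and they had 31 and 31 counts in Hyp replicate 1 and 24 and 16 in LPS + M2-Exo replicate 2, but between 0 and 4 in each of the other 10 libraries. The 25 H3 and H4 genes had 332 counts in Hyp replicate 1 against 216 and 219 in the other Hyp libraries, and 138 in LPS + M2-Exo replicate 2 against 56 and 71. H2A (6.15 CPM) and H2B (9.58) were also highest of their group in LPS + M2-Exo replicate 2. H1 was also highest in Hyp replicate 1 (25.0 CPM). Without Hyp replicate 1, the log2 ratio of Hyp to LPS was 1.31 for H3 and 0.93 for H4, and 1.52 over all members. Of the 14 listed RNAs without a tail, 9 were in the table, and their sum stayed under 3 CPM in every library. That sum was 68 counts in Hyp replicate 1 and 41 in LPS + M2-Exo replicate 2, mostly of Rmrp and Rpph1. Rny3, Rprl1 and Rprl2 were at 0 in every library. How far the selection set the histone counts was not tested.

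**Figure D3:**
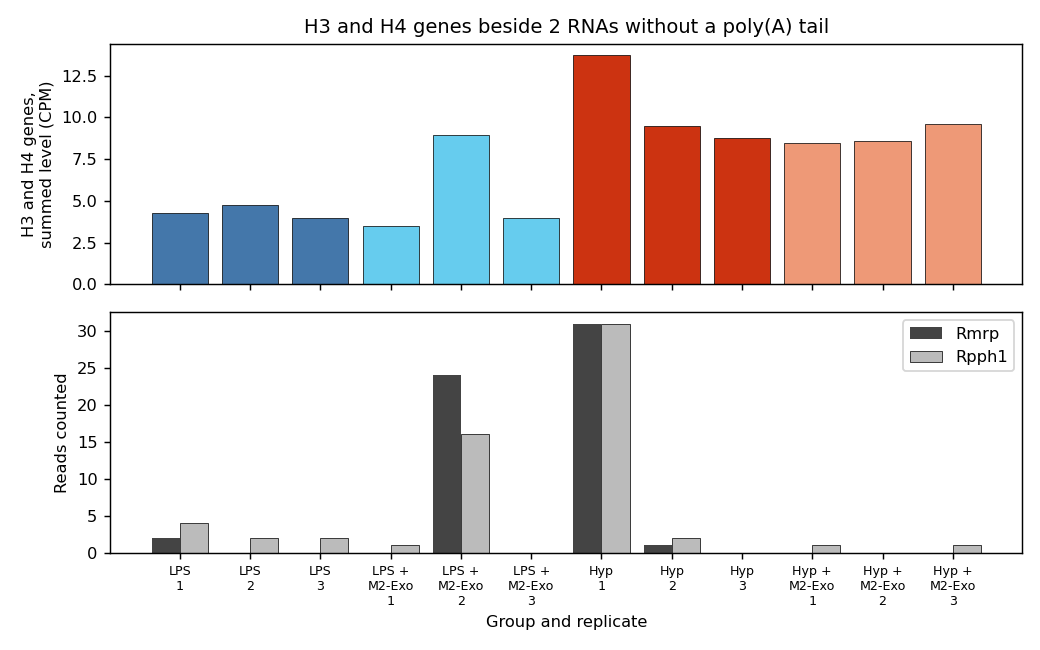
Top, summed level of the 25 H3 and H4 cluster genes (CPM, bars from 0) in each library. Bottom, reads counted for Rmrp (dark) and Rpph1 (light) in the same libraries, which exceed 10 in LPS + M2-Exo replicate 2 and Hyp replicate 1, the libraries with the highest H3 and H4 sums of their groups.

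A split of the members by the annotated polyadenylation signal, made after the values were seen, gave similar ratios of Hyp to LPS. Some members without the signal have short annotated transcripts in which no stem-loop was found either. Hist1h2bn, at 381 bases, Hist1h2af, at 399, and Hist1h4k, at 312, are among them. The split therefore follows the annotation and cannot tell tailed from untailed RNA. The 16 members with the signal held 53.2% of all member counts and summed to 37.3 ± 1.98 CPM in Hyp and 13.0 ± 0.730 in LPS, a 2.88-fold ratio. The 53 without it summed to 33.3 ± 2.55 and 10.9 ± 1.54, a 3.06-fold ratio. With M2-Exo in both arms, members with the signal summed to 35.6 ± 2.90 against 12.6 ± 1.01 CPM (2.83-fold) and those without it to 28.3 ± 1.36 against 12.5 ± 4.22 (2.25-fold). None of these pairs of groups overlapped.

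Hyperoxia was then set against LPS with M2-Exo in both arms, which shares no library with the comparison above. The 71 genes summed to 64.6 ± 4.14 CPM in Hyp + M2-Exo and 25.6 ± 4.63 in LPS + M2-Exo (SD, n = 3), a 2.53-fold ratio (log2 1.34), again with no overlap. H1 genes gave 21.1 ± 2.17 against 6.24 ± 1.07 CPM (log2 ratio 1.76), H2B genes 25.3 ± 2.32 against 8.16 ± 1.25 (1.63) and H2A genes 9.29 ± 1.27 against 5.71 ± 0.645 (0.70), each without overlap. H3 genes, at 3.24 ± 0.494 against 2.39 ± 1.42 CPM (0.44), and H4 genes, at 5.64 ± 0.708 against 3.07 ± 1.60 (0.88), overlapped. Without LPS + M2-Exo replicate 2, the library with the Rmrp and Rpph1 reads, the ratios were 1.04 for H3, 1.40 for H4 and 1.49 for all members.

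Here 15 members passed the filter, 10 were called higher and 0 lower, against 37.1% and 36.5% of 13660 genes (73.7% in either direction), and 7 of the 15 passed through Hyp + M2-Exo alone. Hist1h2bq and Hist1h2bn were among these 7, so their adjusted p-values are no support for a rise here either. With no filter 69 members had a count, and 14 were called higher and 0 lower, against 26.7% and 24.5%. Hist1h1c had 108, 81 and 88 counts in LPS + M2-Exo and 513, 385 and 413 in Hyp + M2-Exo (log2 fold change 1.79, SE 0.142, edgeR adjusted p = 9.32e-06). Hist1h2bc had 38, 43 and 52 against 250, 254 and 236 (2.03, SE 0.125, edgeR adjusted p = 2.36e-06). Hist1h2bq went from 7, 9 and 8 to 60, 43 and 59 (2.30, edgeR adjusted p = 9.41e-05), Hist3h2a from 22, 19 and 26 to 84, 84 and 98 (1.55, edgeR adjusted p = 0.000136) and Hist1h2be from 21, 18 and 15 to 38, 71 and 71 (1.299, edgeR adjusted p = 0.00913). Hist1h2bn, at 0 in LPS without M2-Exo, had 0, 2 and 1 counts here and 26, 30 and 21 in Hyp + M2-Exo (edgeR adjusted p = 0.000175).

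Of the members called higher, 9 were shared, which is 52.9% of the 17 without M2-Exo and 90% of the 10 with it. Among these, Hist1h2bq, Hist1h2bn, Hist1h2bg, Hist1h2br and the Hist2h2bb outer row passed the filter through hyperoxia libraries alone in both comparisons. Their shared calls are no support for a rise. Of all genes, 38.0% were called higher without M2-Exo and 37.1% with it. The share of all genes called higher in both is not given here. Of the 8 called only without M2-Exo, 6 were not tested with it. The other two were the H2A genes Hist1h2af (32, 38 and 38 counts against 98, 45 and 51, log2 fold change 0.39, edgeR adjusted p = 0.252) and Hist2h2aa2 (6, 8 and 6 against 14, 16 and 11, 0.58, edgeR adjusted p = 0.153). Hist1h4i was called with M2-Exo alone, at 18, 15 and 18 against 53, 47 and 41 counts (1.02, SE 0.194, edgeR adjusted p = 0.00157). A fit to all 12 libraries tested whether the M2-Exo effect differed between the hyperoxia and LPS arms. Of 22 members tested, 0 were called by edgeR, against 0.0352% of 14187 genes, and DESeq2 also called 0. With no adjustment 2 members had a p under 0.05, against 9.78% of all genes, Hist1h4i (difference of log2 fold changes 0.68, edgeR adjusted p = 0.437) and Hist1h2bn (-3.62, edgeR adjusted p = 0.455). The value of Hist1h2bn is a fit against counts of 0 in LPS and near 0 in LPS + M2-Exo, and its size is no bound.

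**Figure D4:**
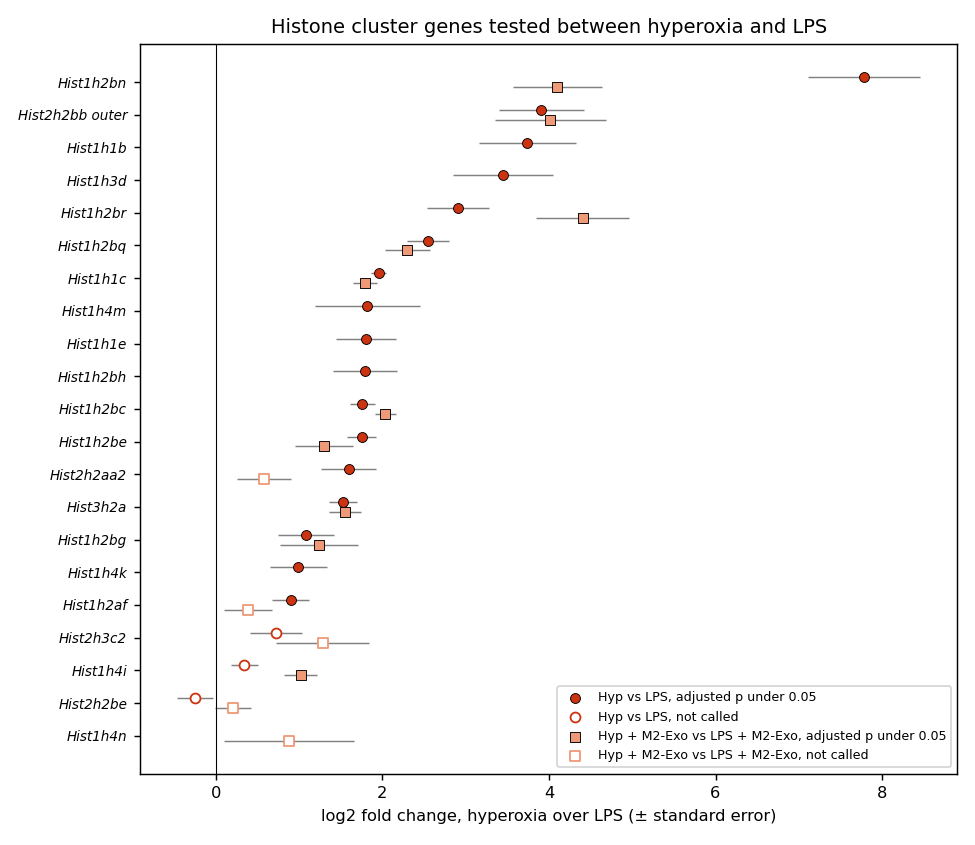
Log2 fold change of hyperoxia over LPS with its standard error for the members that passed the filter, without M2-Exo (circles) and with M2-Exo (squares), filled where edgeR's adjusted p is under 0.05. The filled points all lie above 0, Hist2h2be lies on both sides of 0 unfilled, and the point of Hist1h2bn without M2-Exo is a fit against counts of 0 and no bound. Without M2-Exo 13 of the 20 members, and with it 7 of the 15, passed through the hyperoxia libraries alone.

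M2-Exo itself was compared within each injury, on the same libraries as the comparisons of hyperoxia with LPS. In hyperoxia, 26 members were tested and 0 were called by edgeR (0.101% of 13815 genes were) or by DESeq2. The sum over all members was 64.6 ± 4.14 CPM with M2-Exo and 71.5 ± 4.45 without (log2 ratio -0.15), and the groups overlapped. Among the classes, only H2A sums did not overlap, at 9.29 ± 1.27 against 11.7 ± 0.966 CPM (-0.34). Of the 26 log2 fold changes, 18 were negative and 8 positive, with a median of -0.16 where all genes had -0.0021. With no adjustment, 1 member had a p under 0.05, against 8.48% of all genes. This was Hist1h3d, with 12, 11 and 11 counts against 22, 14 and 25 (-0.74, SE 0.279, edgeR adjusted p = 0.575). Hist1h1c had a log2 fold change of -0.10 (SE 0.099) and Hist1h2bc of -0.18 (SE 0.078), both far smaller than their differences between hyperoxia and LPS.

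In LPS, 8 members were tested and 0 were called by edgeR (0.187% of 13353 genes were) or by DESeq2. The sums overlapped, at 25.6 ± 4.63 with M2-Exo and 24.1 ± 0.788 CPM without (log2 ratio 0.084). Without LPS + M2-Exo replicate 2 this ratio was -0.070, the H3 ratio went from 0.69 to 0.086 and the H4 ratio from 0.11 to -0.41. With no adjustment, 1 member had a p under 0.05, against 11.1% of all genes, Hist1h4i with 18, 15 and 18 counts against 31, 30 and 27 (-0.62, SE 0.205, edgeR adjusted p = 0.335). Hist1h1c had a log2 fold change of 0.064 (SE 0.143) and Hist1h2bc of -0.45 (SE 0.204, edgeR adjusted p = 0.474).

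The genes that make and process histone mRNA moved in both directions. Of 24 listed factors, 15 were higher and 3 lower in Hyp than in LPS, against 38.0% and 37.8% of 13805 genes. Their median log2 fold change was 0.27 against 0.0091 over all genes. With M2-Exo 16 were higher and 5 lower, against 37.1% and 36.5% of 13660 genes. Calls in either direction took 75.8% and 73.7% of all genes, so a call by itself was common. Slbp, which binds the stem-loop, was at 208 ± 4.48 CPM in Hyp and 177 ± 3.94 in LPS (0.23, edgeR adjusted p = 0.000224). Npat, the coactivator of histone gene transcription, rose by 0.50 and Casp8ap2 (FLASH), needed for 3′ end processing, by 0.71 (edgeR adjusted p = 2.8e-06 and 0.00104). Cstf2, a subunit of the cleavage machinery, rose by 0.85, while Zcchc11, a uridylyltransferase that marks histone mRNA for decay, fell by 1.12 on the log2 scale.

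The listed histone variants, from genes outside these clusters, were mostly lower. Of 11 listed, 3 were higher and 7 lower in Hyp than in LPS, against 38.0% and 37.8% of all genes, with a median log2 fold change of -0.999. The counts were the same with M2-Exo (median -0.71), against 37.1% and 36.5% of all genes. H2afv, one of the H2A.Z genes, fell from 115 to 31.8 CPM (-1.85), H2afz, the other, from 29.3 to 13.5 (-1.12) and the linker variant H1f0 from 114 to 35.6 (-1.68). Both H3.3 genes were called in opposite directions. H3f3a fell from 167 to 83.3 CPM (-0.999), and H3f3b, the most abundant of the list, rose from 774 to 1008 (0.38). Summed, the 11 variants stayed at 1628 ± 50.1 CPM in Hyp against 1652 ± 84.4 in LPS, which overlapped. All cluster genes summed to 71.5 CPM in Hyp, but poly(A) selection mostly leaves RNAs without a tail out. These levels therefore do not compare how much RNA of each kind the cells held. H2afx was not called (0.10, edgeR adjusted p = 0.117), and it was with scaling by library size alone (0.19, edgeR adjusted p = 0.00926) and without Hyp replicate 2 (0.14, edgeR adjusted p = 0.0417).

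Of 36 S phase genes, 23 were higher and 5 lower (median 0.40), and with M2-Exo 22 were higher and 6 lower. For these and the next lists, 38.0% of all genes were higher and 37.8% lower in Hyp, and 37.1% and 36.5% with M2-Exo. Cdc6, which loads the replicative helicase, rose by 1.47, Cdc45 of that helicase by 1.09, and the G1/S cyclins Ccne2 and Ccne1 by 1.08 and 1.07. Of 17 G2/M genes, 6 were higher and 9 lower (median -0.15), with cyclin Ccnb2 lower by a log2 fold change of -1.30 and the spindle checkpoint kinase Bub1 higher by 0.61. Of 22 histone chaperones, 11 were higher and 7 lower (median 0.18), with Ubn1 of the H3.3 deposition complex at 1.20, Asf1b at 0.71, Chaf1b of the replication-coupled assembly factor at 0.68 and Atrx at -0.67. Within each injury, edgeR and DESeq2 both called 0 genes of these 5 lists with M2-Exo. By edgeR, 0.101% of all genes were called in hyperoxia and 0.187% in LPS. With no adjustment, edgeR gave a p under 0.05 in hyperoxia to 3 factors, 1 variant, 4 chaperones, 6 S phase genes and 1 G2/M gene. In LPS it did so for 5 factors, 2 variants, 1 chaperone and 0 S phase or G2/M genes. Of all genes, 8.48% in hyperoxia and 11.1% in LPS had such a p.

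**Figure D5:**
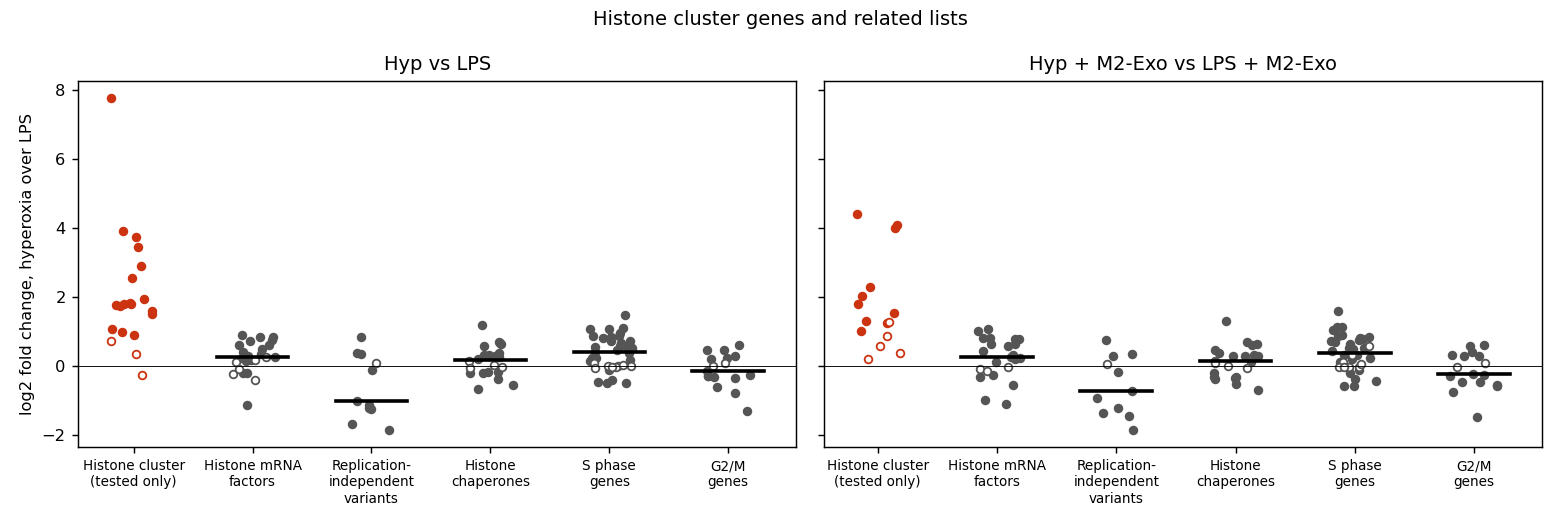
Log2 fold change of hyperoxia over LPS without M2-Exo (left) and with it (right) for the tested histone cluster genes (red) and 5 related lists (grey), filled where edgeR's adjusted p is under 0.05, with the median of each list as a line. No line is drawn for the cluster genes, of which 13 of 20 (left) and 7 of 15 (right) entered through the hyperoxia libraries alone. Since the filter favoured high values of such cluster genes, they are not compared with the lists. The replication-independent variants have the lowest median of the 5 lists, -0.999 and -0.71.

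The groups also differed in cell type markers, in a comparison where 38.0% of 13805 genes were called higher in Hyp and 37.8% lower. Of the 11 AT II and epithelial markers, 6 had a mean over 1 CPM, and the list summed to 559 to 575 CPM in LPS and 343 to 357 in Hyp. Sftpa1 and Sftpd were at or near 0, whereas Nkx2-1 was at 172 CPM in LPS and 39.4 in Hyp and Sftpc at 22.3 and 11.3. Of 7 tested, 6 were lower and 1 was higher in Hyp, and that one was Sftpb, a surfactant protein gene, at 1.498 CPM in LPS and 4.63 in Hyp (log2 fold change 1.62, edgeR adjusted p = 4.94e-05). Of the 12 macrophage markers, 8 of 9 tested were lower in Hyp, from 424 to 475 CPM summed in LPS to 111 to 116 in Hyp, with Csf1r at 107 and 19.3 CPM, and Chil3 and Retnla were at 0 in every library. The AT II list moved likewise with M2-Exo in both arms, at 548 to 574 against 328 to 351 CPM, and the macrophage list at 337 to 388 against 85.4 to 127. Within LPS, the macrophage list was also lower with M2-Exo, at 337 to 388 against 424 to 475 CPM without overlap. Of its 9 genes tested there, edgeR called 0, with 7 at an unadjusted p under 0.05, and DESeq2 called 4, all lower. The other sums of these 2 lists overlapped between groups with and without M2-Exo. These lists moved with every histone difference between hyperoxia and LPS given above, and their part in it was not tested.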

How the data were processed

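RNA of 12 MLE-12 libraries was measured by sequencing after poly(A) selection. The authors filtered reads with Seqtk, mapped them with HISAT2 2.0.4 and used edgeR to test differential expression; the submitters' notes also name StringTie 1.3.0 and GRCm38 with no role. The deposited table holds raw read counts per gene and FPKM, and the deposited FPKM followed from those counts, a gene length and the library total to a relative 0.000733. The counting program and strand are not given in the sources used here.

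Members and lists were chosen with earlier results of these data known. The count test was edgeR 4.0.16 under R 4.3.3 (filterByExpr, TMM, quasi-likelihood F test, 6 libraries per comparison and 12 for the interaction), and p-values were adjusted by Benjamini-Hochberg over all genes tested. Sums are CPM over TMM-scaled totals with no test. Bounds set a count of 0 at 3 counts and cover counting error only. Members named were the 3 highest by FPKM in each class and those called with a mean of at least 50 counts and groups apart; others are marked. From the lists, 8 genes and up to 4 called genes per comparison were named. Near-identical stretches came from BLAST 2.17.0 of GENCODE M21 transcripts. Fits were tested on simulated data. Alternatives used DESeq2 1.42.0, limma 3.58.1 on log2 FPKM, other scalings, filters and thresholds, a replicate block and each library left out.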

Additional observations from a re-analysis of the deposited data

How the results depend on the processing

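Members called higher in Hyp than in LPS numbered 17, and 26 with no filter on low counts, 5 with at least 10 counts in every library, 31 by limma on log2 FPKM with no filter, 6 at the study's thresholds (log2 fold change of 2 or more in size, p under 0.05 unadjusted), and 2 among members without a near-identical stretch. With M2-Exo in both arms the 10 calls became 5 with at least 10 counts, 22 by limma with no filter (21 higher, and Hist1h4j, named after its value was seen, lower), 5 at the study's thresholds and 2 without near-identical stretches. The share of all genes called is not given here for each setting, so these counts show only how the number of calls moved. The 17 and the 10 include members that passed the filter through the hyperoxia libraries alone. Leaving out each library gave 14 to 20 and 10 to 13 calls, and 0 to 0 for M2-Exo in either injury and for the interaction, which had 0 calls under each alternative run. The summed log2 ratio of 1.57 was 1.43 without Hist1h1c and 1.52 to 1.60 with a library left out, and the other sums ran from 1.23 to 1.49, from -0.19 to -0.095 and from -0.070 to 0.19. Summed H2B genes reversed to -0.076 over members without a near-identical stretch, where Hist2h2be has most counts. Same-numbered libraries did not deviate together, and a replicate block gave 16 and 9 calls in the comparisons of hyperoxia with LPS and 0 in the others, and with it Hist1h4k without M2-Exo and Hist1h2bg with M2-Exo were no longer called. The call of Hist1h2bg with M2-Exo (edgeR adjusted p = 0.0412) was also lost by DESeq2 (0.103) and without LPS + M2-Exo replicate 1 or 2 or any 1 Hyp + M2-Exo replicate (edgeR adjusted p = 0.0519 to 0.136). The causes were not tested. Most members had a mean under 10 counts, and a missing call in them does not show that they did not differ.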
